A study of Mus musculus with 10 samples.

Results

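The clade B serpins of mouse skin were followed through 10 of their genes (Serpinb1a, Serpinb2, Serpinb3a, Serpinb3b, Serpinb3c, Serpinb3d, Serpinb5, Serpinb7, Serpinb8 and Serpinb12), taken by symbol from tables of 20611 genes. All 10 had enough counts to be tested, among 14861 tested genes. The mRNA of whole skin was sequenced from 5 mice that overexpress Klk6, the gene of a secreted trypsin-like serine protease, and from 5 controls, each group with 3 males (replicates 1 to 3) and 2 females (replicates 4 and 5). The Klk6+ mice carried 2 transgenes, Tetos-Klk6, which encodes Myc/His-tagged murine Klk6, and the driver K5-tTA, a tetracycline transactivator under the bovine Keratin 5 promoter, which is active in keratinocytes and in some other stratified squamous epithelia and is silenced by doxycycline. Controls, labelled WT, were littermates with neither transgene or with either of them alone, and the labels do not say which control was which. Lines were backcrossed to C57BL/6 and bred on doxycycline. The labels state that Klk6+ mice went back on doxycycline food at 10 to 11 weeks, shortly before they stopped feeding and declined, and that tissue was taken at 14 to 16 weeks of age. They do not settle whether these skins were collected before or after that return, so how long the transgene had been active or silenced is not known here. Samples of both groups carry the same text on this return, which names Klk6+ mice only. Whether the controls also went back on doxycycline is thus not known here. Klk6 itself stood at 12600 ± 1944 CPM in Klk6+ skin and 18.2 ± 5.17 CPM in WT skin (mean ± SD, n = 5 each; CPM is the read count after scaling for sequencing depth), and the edgeR log2 fold change was 9.45 ± 0.22 (adjusted p = 5.57e-09).

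Serpins are protease inhibitors that work as bait. The target protease cuts an exposed loop of the serpin, the cut loop snaps into the body of the molecule, and the protease is dragged along and trapped in an inactive state. Clade B members lack a classical signal peptide and act mostly inside cells, in epithelia and white blood cells, and several of them are products of keratinocytes. Their targets include serine proteases and, for some members, cysteine proteases of the cathepsin family, and a few members inhibit no protease at all.

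Of the 10 genes, 9 lie in a single cluster of 749.3 kb on chromosome 1 (106861173 to 107610484, GRCm38), which holds 12 clade B genes. Serpinb1a is on chromosome 13 (32842092 to 32851185, minus strand). Within the cluster Serpinb3a, Serpinb3d, Serpinb3b and Serpinb3c follow each other on the minus strand and are near copies. Their longest transcripts in GENCODE M21 were identical at 86.5% to 94.0% of aligned bases in the 6 pairwise comparisons, the closest pair being Serpinb3b and Serpinb3c. Of all 50-base windows, the length of the reads, 15.2% of those in Serpinb3a, 14.7% in Serpinb3b, 12.2% in Serpinb3c and 13.4% in Serpinb3d were also found without a mismatch in a transcript of another gene, mostly each other and the predicted genes Gm8080, Gm8084 and Gm8089. No such window was found in Serpinb2, Serpinb5, Serpinb7 or Serpinb12, and the share was 3.42% in Serpinb1a and 0.177% in Serpinb8. Counts of the single Serpinb3 copies are therefore uncertain by what reads were assigned among them, and the 4 are also given as a sum. Exons of Serpinb2 overlap those of Serpinb10, and exons of Serpinb3b overlap those of Serpinb3c.

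The bases before the annotated starts are shown for the Serpinb3 copies, which differed most between the genotypes, and for Serpinb7, which fell. Serpinb7 lies in the same cluster, with Serpinb11 between it and the copies. These are the 120 bases upstream of each start in RefSeq (GRCm38.p6), 5′ to 3′ on the gene's own strand, at chr1:107052304-107052423, chr1:107161115-107161234, chr1:107278372-107278491 and chr1:107083481-107083600 (minus strand) and chr1:107422569-107422688 (plus strand). Capitals mark the letters of a TATA box (TATAAA, read as TTTATA where it lies on the other strand) and, in Serpinb7 alone among these 5, the AP-1 letters TGAGTCA.
Serpinb3a: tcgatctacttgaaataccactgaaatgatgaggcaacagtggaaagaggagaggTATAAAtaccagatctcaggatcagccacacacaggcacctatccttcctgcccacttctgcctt
Serpinb3b: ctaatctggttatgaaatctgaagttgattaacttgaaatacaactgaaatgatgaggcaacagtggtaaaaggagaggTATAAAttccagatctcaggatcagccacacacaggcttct
Serpinb3c: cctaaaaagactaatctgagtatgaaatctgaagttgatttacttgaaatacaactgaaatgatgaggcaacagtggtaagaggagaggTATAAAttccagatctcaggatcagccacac
Serpinb3d: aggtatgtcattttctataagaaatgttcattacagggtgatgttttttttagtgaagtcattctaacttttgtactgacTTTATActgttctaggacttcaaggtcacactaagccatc
Serpinb7: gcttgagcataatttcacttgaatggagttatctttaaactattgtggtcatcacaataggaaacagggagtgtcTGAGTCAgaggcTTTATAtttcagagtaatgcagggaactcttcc
Serpinb3a, Serpinb3b and Serpinb3c share nearly the same upstream sequence around the TATA letters, shifted by where each start was annotated (first base of the TATA letters 65, 41 and 31 bases before it). Over the 250 bases before the start, these 3 were identical at 92.5% to 95.4% of aligned bases, and Serpinb3d was identical to them at 66.8% to 68.8%. For Serpinb7 and Serpinb3b, GENCODE also holds transcripts that start upstream of these RefSeq starts, whose promoters are not shown. For Serpinb3d the GENCODE gene starts at 107083506, inside the printed bases. By that annotation the last of the bases printed for Serpinb3d belong to the gene, and its TATA letters lie nearer to the start. Promoter windows of 250 bases before to 50 after the start were held for 9 of the 10 genes, and they were searched on both strands. A gene was counted if any of its promoters held the letters, whereas the percentages are of single promoters. The TATA letters occurred for 7 of the 9 genes and in 13.6% of all 32851 promoters of the table. Among the 7 were Serpinb3a, Serpinb3b and Serpinb3c, whose sequences are nearly the same. Another was Serpinb12, where the letters lay only 220 and 201 bases before its starts. The AP-1 letters TGANTCA occurred for 5 (Serpinb2, Serpinb5, Serpinb7, Serpinb8 and Serpinb12) and in 7.81% of all promoters, so they were found in genes that rose and in Serpinb7, which fell. The STAT letters TTCCNNGAA occurred for Serpinb2 only (4.81% of all promoters), and TTGCNNCAA of C/EBP and the NF-kB pattern (3 G, 3 free bases, then TTCC) for none (2.08% and 5.56% of all promoters). The end of the NF-kB pattern can overlap the start of the STAT pattern.

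Skin libraries held 32798416 to 41970272 counts in WT and 26521019 to 39796511 in Klk6+. All 10 keratinocyte markers looked for, the defining genes of the labelled tissue, were detected in every library. Of these, 6 rose, 1 fell (Krt10) and 3 were not called, and their sum ranged from 7289 to 20120 CPM in WT against 25410 to 36500 CPM in Klk6+. The 10 skeletal muscle markers all fell, their sum ranging from 55300 to 80950 CPM in WT against 4305 to 9013 CPM in Klk6+, and all markers of fibroblasts (7), adipocytes (7) and endothelium (6) fell too, as did 5 of 7 of T cells. Of 5 melanocyte markers 4 rose. Whole skin was sampled, so a higher level per cell and a larger share of the cells that make a transcript cannot be told apart. The labels do not state litters or batches, and p-values measure the spread between these mice.

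Between the genotypes, 8 of the 10 serpin genes rose in Klk6+ skin, Serpinb7 fell, and Serpinb8 was not called. Over all genes tested, 37.7% were called higher and 35.1% lower, 72.8% in all, by edgeR's quasi-likelihood test with sex as a covariate and Benjamini-Hochberg adjusted p below 0.05. The CPM of the genotypes did not overlap for 8 of the 10, against 57.0% of all genes tested, and 7 of these 8 were higher in Klk6+, against 30.1% of all genes tested. Called rises of at least 2-fold were found for 6 of the 10 and for 15.7% of all genes tested. For the 4 Serpinb3 copies the log2 fold change was above 5, which 1.01% of all genes tested reached. The median log2 fold change of the 10 was 2.56, and that of all genes tested was 0.04. The genes were chosen with results of these data known, so these shares describe them and do not set them apart by a test.

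**Figure D1:**
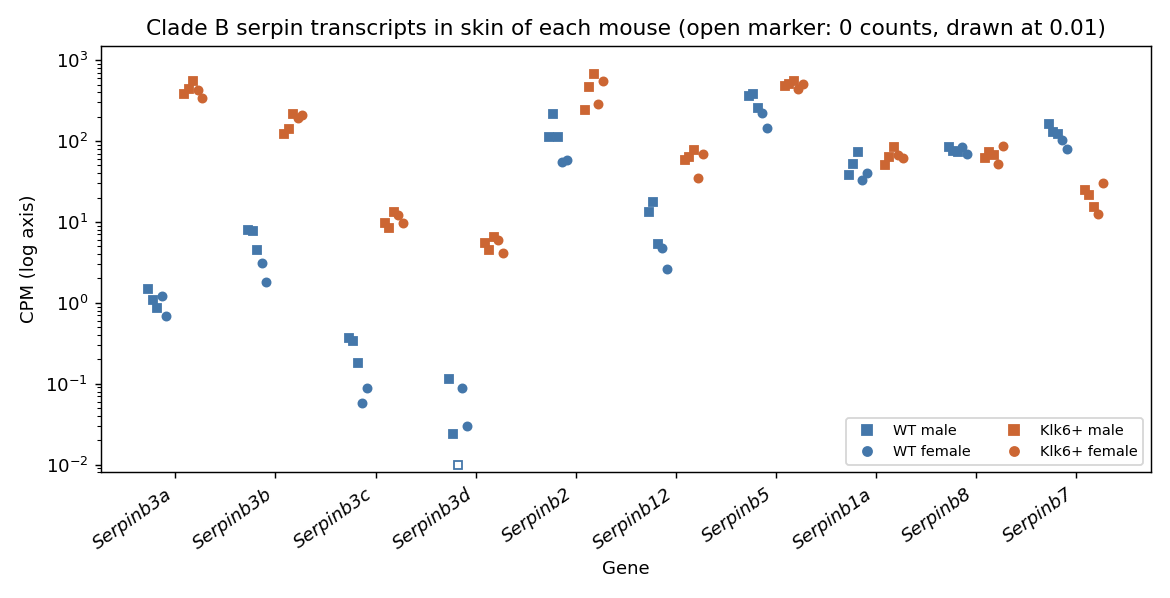
Level of each of the 10 serpin genes (CPM, log axis) in each mouse, squares for males and circles for females, WT in blue and Klk6+ in orange, with an open marker at 0.01 for 0 counts. Every Klk6+ mouse lies above every WT mouse for the 4 Serpinb3 copies, Serpinb2, Serpinb12 and Serpinb5, Serpinb1a and Serpinb8 overlap, and Serpinb7 is lower in all 5 Klk6+ mice.

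The Serpinb3 genes are the mouse counterparts of the human squamous cell carcinoma antigens SERPINB3 and SERPINB4, inhibitors of papain-like cysteine proteases and of chymotrypsin-like serine proteases. Serpinb3a (107045587 to 107052303) stood at 1.47, 1.08, 0.867, 1.20 and 0.687 CPM in WT 1 to 5 and at 376.9, 435.8, 549.2, 427.1 and 338.0 CPM in Klk6+ 1 to 5. The 5 WT libraries held 23 to 64 counts of it and the 5 Klk6+ libraries 9072 to 20865. The log2 fold change was 8.63 ± 0.24 (SE; edgeR adjusted p = 8.73e-09), a 398-fold difference.

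Serpinb3b (107153940 to 107278361) was the most abundant copy in WT, at 8.06, 7.66, 4.49, 3.07 and 1.82 CPM, and stood at 123.8, 142.3, 215.9, 195.5 and 209.7 CPM in Klk6+. Its log2 fold change was 5.24 ± 0.41 (edgeR adjusted p = 2.12e-06). Within WT the males were above the females, and within Klk6+ replicates 1 and 2 were the lowest.

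The other two copies were rare in WT. Serpinb3c (107271201 to 107278371) had 16, 14, 6, 2 and 3 counts in WT 1 to 5 and 341, 244, 509, 396 and 264 counts in Klk6+ 1 to 5. Serpinb3d (107078167 to 107083506) had 5, 1, 0, 3 and 1 counts in WT and 191, 130, 250, 191 and 112 in Klk6+. The 0 in WT 3 allows up to 0.0897 CPM, taking 3 counts as the limit, a limit that covers counting error alone. The log2 fold changes were 5.71 ± 0.39 for Serpinb3c and 6.55 ± 0.46 for Serpinb3d (edgeR adjusted p = 1.15e-06 and 1.28e-06). With so few WT counts the size of these folds is loosely set: on the log2(FPKM + 1) scale they were 2.70 and 2.45, a scale that compresses low genes.

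Summed over the 4 copies, the level per transcript length was 6.19, 5.26, 3.31, 2.72 and 1.59 FPKM in WT 1 to 5 and 314, 344.2, 465.3, 405.5 and 348.9 FPKM in Klk6+ 1 to 5 (FPKM, the authors' values scaled to transcript length and depth). The summed CPM rose from 6.34 ± 3.13 to 618.9 ± 103.4 (mean ± SD, n = 5 each), a difference of 6.75 on the log2 scale (exact permutation test, two-sided, p = 0.00794, which is the lowest value groups of 5 allow). With the summed count in place of the 4 rows, the edgeR log2 fold change was 6.70 ± 0.33 (adjusted p = 2.77e-07). The sum does not depend on how counted reads were divided among these 4 genes. It can still lack reads that match more than 1 of them, if such reads were left out of the counts. It can also hold or lack reads shared with the predicted genes.

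The mix of the copies differed as well. Serpinb3b held 76.6% ± 7.20 of the 4 copies' summed FPKM in WT and 28.5% ± 5.52 in Klk6+, and Serpinb3a held 19.0% ± 6.95 and 68.5% ± 5.50 (n = 5 each; two-sided exact permutation p = 0.00794 for each, 0.0159 after Benjamini-Hochberg adjustment over the 4 copies). The ranges were far apart, with Serpinb3a at 11.9% to 26.9% in WT and 60.03% to 73.5% in Klk6+. Serpinb3c held 3.00% ± 0.976 and 1.69% ± 0.181 (exact permutation p = 0.0476, adjusted 0.0635), and Serpinb3d 1.34% ± 1.17 and 1.28% ± 0.184 (exact permutation p = 0.952). Within WT, Serpinb3a held more in the 2 females (26.9% and 26.0%) than in the 3 males (11.9% to 15.6%), while within Klk6+ it held 66.4% and 60.03% in the females and 69.7% to 73.5% in the males. Reads that match more than 1 copy could move these shares, and no source used here states how they were assigned.

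**Figure D2:**
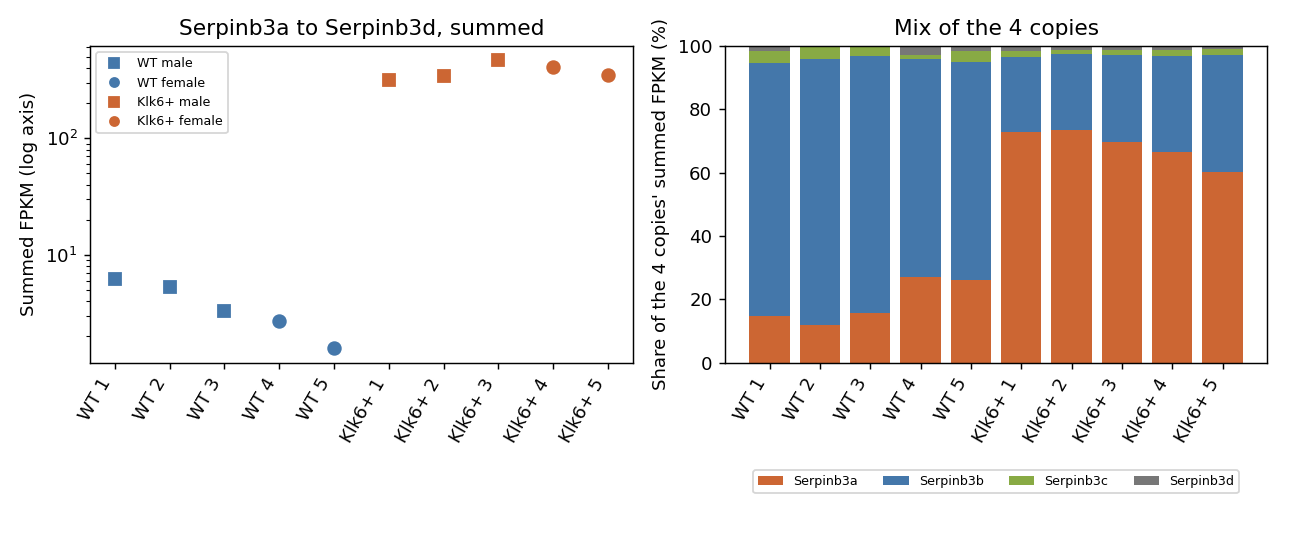
Left, summed FPKM of Serpinb3a to Serpinb3d in each mouse on a log axis, between 1.59 and 6.19 in WT and between 314 and 465.3 in Klk6+. Right, the share of that sum held by each copy (%), where Serpinb3b is the largest in all 5 WT mice and Serpinb3a in all 5 Klk6+ mice.

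Serpinb2 (107511423 to 107535478, plus strand) encodes plasminogen activator inhibitor 2, which inhibits the urokinase-type and tissue-type plasminogen activators. Its level was 110.9, 215.3, 111.9, 55.3 and 58.6 CPM in WT 1 to 5 and 242.2, 461.8, 681.4, 286.4 and 555.2 CPM in Klk6+ 1 to 5. All Klk6+ mice were above all WT mice, although WT 2 came close to Klk6+ 1. The log2 fold change was 2.15 ± 0.38 (edgeR adjusted p = 0.000473). The overlapping gene Serpinb10 stood at 22.3 ± 7.17 CPM in WT and 17.8 ± 6.94 CPM in Klk6+ (n = 5 each; edgeR adjusted p = 0.333).

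Serpinb12 (106934449 to 106957080, plus strand), whose product inhibits trypsin-like serine proteases, was at 13.4, 17.6, 5.29, 4.83 and 2.60 CPM in WT and 58.2, 63.0, 78.6, 34.7 and 68.6 CPM in Klk6+. The WT mice spread widely, with WT 1 and WT 2 high and WT 5 low, and still none reached Klk6+ 4, the lowest of its group. The log2 fold change was 2.96 ± 0.40 (edgeR adjusted p = 8.32e-05).

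Serpinb5 (106861173 to 106883348, plus strand) encodes maspin, a clade B serpin that inhibits no protease and is abundant in keratinocytes. It was the most abundant of the 10 in WT by CPM, at 360.3, 377.5, 256.4, 222.8 and 146.9, and stood at 484.8, 512.5, 559.0, 440.1 and 512.9 CPM in Klk6+. The log2 fold change was 0.93 ± 0.18 (edgeR adjusted p = 0.00105), a 1.91-fold difference.

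Serpinb7 (107399655 to 107452689, plus strand) encodes megsin, whose loss in people causes a palmoplantar keratosis. It went the other way, from 163.9, 128.7, 123.8, 103.1 and 80.6 CPM in WT 1 to 5 to 24.8, 21.3, 15.4, 12.4 and 30.7 CPM in Klk6+ 1 to 5. The highest Klk6+ mouse was well below the lowest WT mouse. The log2 fold change was -2.50 ± 0.26 (edgeR adjusted p = 1.43e-05), a 5.64-fold lower level.

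Serpinb8 (107590006 to 107610484, plus strand), whose product can inhibit the proprotein convertase furin, was at 83.7, 75.1, 72.9, 84.4 and 69.4 CPM in WT and 61.5, 74.0, 67.3, 52.5 and 87.6 CPM in Klk6+. The groups overlapped and the log2 fold change was -0.17 ± 0.13 (edgeR adjusted p = 0.271). Klk6+ 5 was the highest of all 10 mice, and without it Serpinb8 was called lower (-0.36, adjusted p = 0.0138).

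Serpinb1a, a mouse counterpart of SERPINB1, the inhibitor of the neutrophil proteases elastase, cathepsin G and proteinase 3, was at 37.6, 51.7, 72.6, 32.8 and 39.9 CPM in WT and 51.1, 63.8, 85.5, 67.4 and 62.3 CPM in Klk6+. The groups overlapped through WT 2 and WT 3, and the log2 fold change was 0.52 ± 0.20 (edgeR adjusted p = 0.0398). The call was lost without WT 1, WT 2, WT 4, WT 5, Klk6+ 3, Klk6+ 4 or Klk6+ 5 (adjusted p 0.0768 to 0.138), with RLE factors (0.0616), upper-quartile factors (0.0806), unscaled library totals (0.0549) or genotype alone (0.0576), and in males alone (0.45). Of 10 neutrophil markers tested, 8 rose and 1 fell in the same libraries. Their sum ranged from 73.5 to 276.3 CPM in WT, overlapping that in Klk6+ (95.6 to 461.1 CPM). Most of the WT sum was Itgam (mean 122.3 ± 76.3 CPM), which fell, and Mmp9 (35.3 ± 5.32 CPM), which was not called. Of the 10 markers, 6 were higher in Klk6+ without overlap, against 30.1% of all genes tested. The part of neutrophils in the result was not tested.

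**Figure D3:**
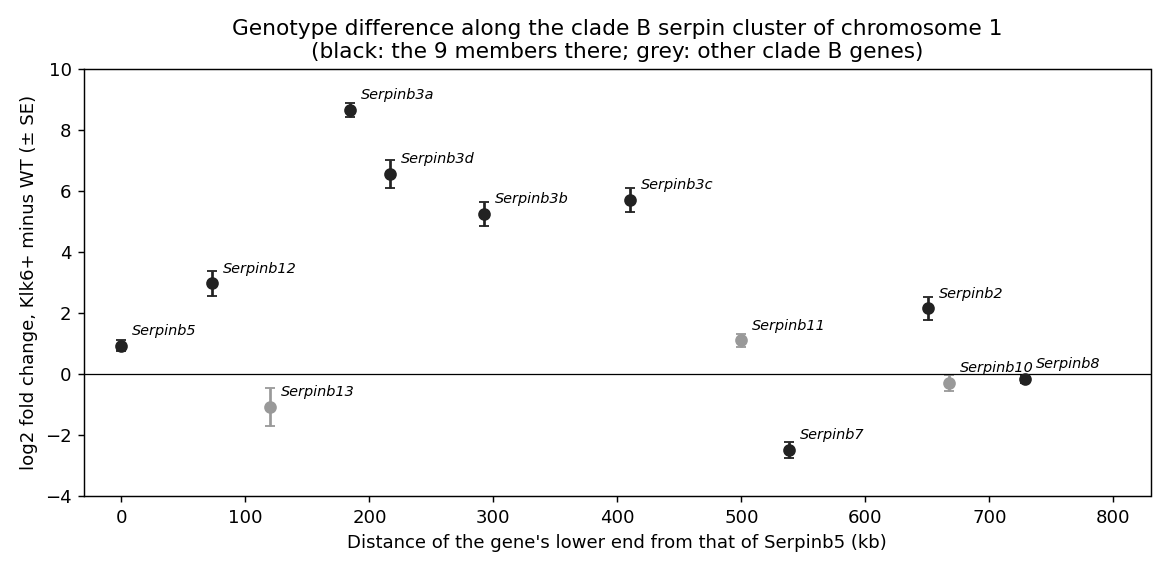
Genotype difference (log2 fold change, Klk6+ minus WT, bars ± SE) of the 12 clade B genes of the chromosome 1 cluster against distance from the lower end of Serpinb5 in kb, the 9 genes described in black and the other 3 in grey. The 4 Serpinb3 copies stand highest, Serpinb7 lies below 0 between Serpinb11 and Serpinb2, which are above it, and Serpinb8 at the far end is near 0.

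Neighbours in the cluster moved in different directions and by different amounts. From the lower end, the log2 fold changes were 0.93 for Serpinb5, 2.96 for Serpinb12, -1.07 ± 0.63 for Serpinb13 (not called, edgeR adjusted p = 0.148), 8.63 for Serpinb3a, 6.55 for Serpinb3d, 5.24 for Serpinb3b and 5.71 for Serpinb3c. Beyond these, Serpinb11 rose by 1.10 ± 0.22 (edgeR adjusted p = 0.00114), Serpinb7 fell by 2.50, Serpinb2 rose by 2.15, and Serpinb10 (-0.29) and Serpinb8 (-0.17) were not called. The low-count Serpinb13, of a cathepsin inhibitor, was at 0.796 ± 0.674 CPM in WT and 0.326 ± 0.186 CPM in Klk6+ (n = 5 each).

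By level per transcript length, the order of the 10 genes was rearranged. In WT the median FPKM ran from Serpinb5 (92.4) over Serpinb7 (62.6), Serpinb2 (53.6), Serpinb8 (24.5) and Serpinb1a (19.96) to Serpinb12 (3.18), Serpinb3b (2.69), Serpinb3a (0.627), Serpinb3c (0.105) and Serpinb3d (0.0267). Neighbours in this order overlapped between mice except Serpinb1a and Serpinb12, Serpinb3b and Serpinb3a, and Serpinb3a and Serpinb3c. In Klk6+ the order began with Serpinb3a (253), Serpinb2 (215.9), Serpinb5 (179.7) and Serpinb3b (123) and went on with Serpinb12 (36.7), Serpinb1a (32.1), Serpinb8 (25.6), Serpinb7 (10.4), Serpinb3c (5.97) and Serpinb3d (4.87). There Serpinb5 and Serpinb3b, Serpinb3b and Serpinb12, and Serpinb8 and Serpinb7 were the neighbours whose ranges did not overlap. Serpinb7 thus went from a mean of 23.0% of the 10 genes' FPKM to 1.26%, and Serpinb3a from 0.244% to 29.5%.

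The serpins were also set against the level of keratinocyte markers in the same library. The summed keratinocyte markers stood at 20120, 18990, 13440, 11290 and 7289 CPM in WT 1 to 5 and 32390, 36500, 35350, 25410 and 35150 CPM in Klk6+ 1 to 5. The WT mice with low marker sums were those with low Serpinb5, Serpinb12 and Serpinb3b. Set against that sum, Serpinb5 varied little, at 17.9 to 20.2 CPM per 1000 marker CPM in WT and 14.0 to 17.3 in Klk6+, so that by this ratio it was lower in Klk6+. Against the 6 markers that are not keratins, a choice made after seeing the values, it was 52.3 to 58.3 in WT and 54.8 to 67.8 in Klk6+, with overlap. The direction of the Serpinb5 difference was thus higher by CPM, lower against all 10 markers, and not separated against 6 of them. The keratins on the list themselves changed, among them Krt14 (log2 fold change 3.52, edgeR adjusted p = 1.83e-06) and Krt10 (-0.54, adjusted p = 0.0278).

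The larger differences remained in both ratios. Summed Serpinb3 copies were 0.360 to 0.498 CPM per 1000 marker CPM in WT and 15.9 to 25.2 in Klk6+, a ratio of means of 44.6 (61.8 against the markers that are not keratins). Serpinb12 was 3.27 times higher by the first ratio and 4.6 times by the second. Serpinb7 was 14.1 times lower in Klk6+ by the first and 9.92 times by the second, and Serpinb8, not called by CPM, was 2.94 and 2.07 times lower, without overlap in either. Serpinb2 was 1.74 times higher with overlap between the groups by the first ratio and 2.42 times higher without overlap by the second. Serpinb1a was 1.81 and 1.30 times lower in Klk6+, with overlap in both, where its CPM was higher. These ratios were not tested, and the part of keratinocyte marker levels in the results was not tested either.

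**Figure D4:**
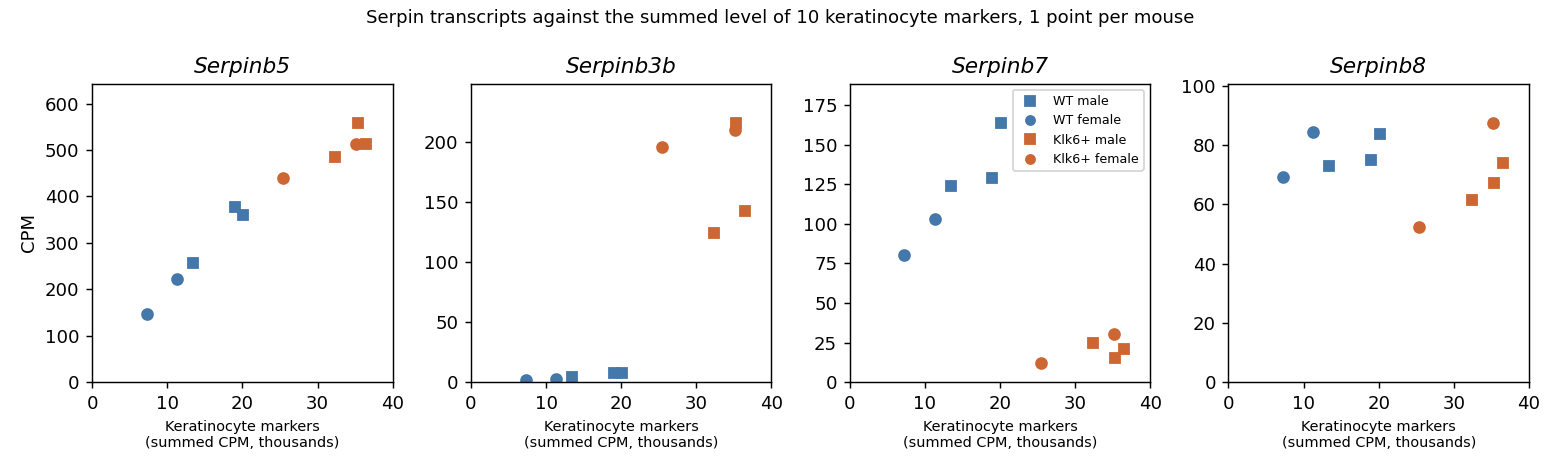
CPM of Serpinb5, Serpinb3b, Serpinb7 and Serpinb8 against the summed CPM of 10 keratinocyte markers (in units of 1000 CPM), 1 point per mouse. Per 1000 marker CPM, Serpinb5 stands at 17.9 to 20.2 CPM in WT and, lower, at 14.0 to 17.3 CPM in Klk6+. The Klk6+ mice lie above all WT mice for Serpinb3b (123.8 CPM or more) and below all of them for Serpinb7 (30.7 CPM or less).

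The genotype difference was also read within each sex, from a model with 4 means for genotype and sex. Serpinb3a differed by 8.62 ± 0.32 in males and 8.66 ± 0.39 in females on the log2 scale. For Serpinb3b the difference was 4.57 ± 0.32 in males and 6.37 ± 0.43 in females, and for Serpinb3c 5.12 ± 0.32 and 7.15 ± 0.47. Serpinb5 differed by 0.65 ± 0.19 in males and 1.37 ± 0.24 in females. The genotype by sex interaction did not pass adjustment for any of the 10 genes, the lowest being Serpinb3b (1.80 ± 0.46, edgeR adjusted p = 0.271), Serpinb3c (2.03 ± 0.57, adjusted p = 0.306) and Serpinb5 (0.72 ± 0.31, adjusted p = 0.509). These 3 had an unadjusted p below 0.05. Across all genes tested 0.0% were called for the interaction, and 9.49% had an unadjusted p below 0.05 in edgeR. With limma-voom and with RLE factors none of the 10 was called either, and the lowest adjusted p ranged from 0.21 to 0.805 over these fits and those without single libraries. The keratinocyte marker sum was 13440 to 20120 CPM in WT males and 7289 to 11290 CPM in WT females, and that of macrophages 1656 to 2947 and 6838 to 8419 CPM; their part in the difference between the sexes was not tested. Within males 7 genes were called higher, Serpinb1a being not called (adjusted p = 0.299), and Serpinb7 was called lower, against 33.4% and 31% of all genes. Within females 8 were called higher and Serpinb7 lower, against 31.2% and 28.4%.

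**Figure D5:**
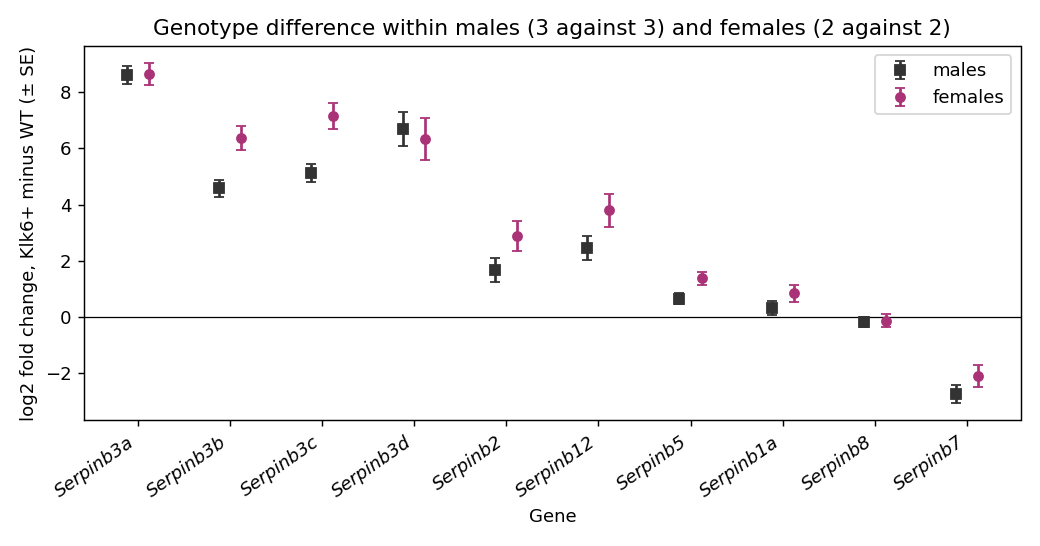
Genotype difference of each serpin gene (log2 fold change, Klk6+ minus WT, bars ± SE) in males (3 against 3, squares) and females (2 against 2, circles). Serpinb3a stands at 8.62 and 8.66, while Serpinb3b and Serpinb3c stand at 6.37 and 7.15 in females and 4.57 and 5.12 in males, a difference that did not pass adjustment. The female value of Serpinb3c rests on 2 and 3 counts in the 2 WT females. Serpinb3d stands at 6.33 in females and 6.69 in males.

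The other clade B genes, which lie mostly on chromosome 13 beside Serpinb1a, were called in both directions. Of 20 looked for, 17 were listed and 12 tested; 4 rose, 4 fell and 4 were not called, with a median log2 fold change of -0.45. These counts are near the 37.7% higher and 35.1% lower of all genes tested. Serpinb6a, the most abundant clade B transcript of WT skin, fell from 834.7 ± 99.6 to 216.6 ± 58.7 CPM (-1.95 ± 0.19, edgeR adjusted p = 8.70e-06). Its exons overlap those of Nqo2 and Ripk1, and the kit does not mark strand. Serpinb9, whose product inhibits granzyme B, fell by 0.84 ± 0.17 (adjusted p = 0.00137), Serpinb9b by 3.85 ± 0.36 (adjusted p = 6.46e-06) and Serpinb6b by 0.61 ± 0.23 (adjusted p = 0.0326). Serpinb6c, which shares 10.4% of its 50-base windows with other genes, rose by 1.84 ± 0.18 and Serpinb6d by 3.78 ± 0.63, as did Serpinb11 and Serpinb1b (edgeR adjusted p = 0.00114 and 0.0171). Serpinb6b and Serpinb1b overlapped between the genotypes. Serpinb6b was called neither within males nor within females (edgeR adjusted p = 0.0508 and 0.369). Serpinb1b, at a mean of 0.645 CPM in WT and 1.25 CPM in Klk6+, was not called within males (0.195). Serpinb9e had 0 counts in all 5 WT mice and 8, 5, 4, 19 and 0 in Klk6+ 1 to 5, too few to be tested.

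In sum over the clade, the 10 genes went from 270.5 ± 80.4 to 880.1 ± 154.7 FPKM, and the 17 other listed genes from 611.7 ± 59.9 to 249.8 ± 40.4 FPKM (n = 5 each; two-sided exact permutation p = 0.00794 for each). The sum of all 27 was 882.2 ± 76.4 FPKM in WT and 1130 ± 187.1 FPKM in Klk6+ (two-sided exact permutation p = 0.0159). The difference of that sum was 0.35 on the log2 scale, and 0.45 in CPM (exact permutation p = 0.00794). The FPKM of all genes together were also higher in Klk6+ libraries (610304 to 655518) than in WT (490691 to 519399). As a share of all FPKM, a measure added after seeing the data, all 27 together held 0.173% ± 0.0162 in the WT mice and 0.179% ± 0.0286 in the Klk6+ mice (5 per group; exact permutation p = 0.738), with overlap, so whether the clade's total differed depends on the scale. By that share the 10 genes still rose, from 0.0532% ± 0.0167 to 0.140% ± 0.0236, and the other 17 fell, from 0.1197% ± 0.0102 to 0.0396% ± 0.00635 (exact permutation p = 0.00794 for each). By mean FPKM the largest parts were Serpinb6a (560), Serpinb5 (98.8) and Serpinb7 (61.1) in WT, and Serpinb3a (257), Serpinb2 (216) and Serpinb5 (183.2) in Klk6+. In the same libraries the 10 skeletal muscle markers and the 10 macrophage and monocyte markers all fell, and the macrophage sum, 1656 to 8419 CPM in WT, was 540.7 to 1751 CPM in Klk6+; their part in the fall of Serpinb6a and Serpinb9 was not tested.

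Genes of proteases, among them known targets of clade B serpins, moved both ways. Of 15 serine proteases of skin and white blood cells, 13 were tested, of which 9 rose and 3 fell (median log2 fold change 1.08), against 37.7% and 35.1% of all genes tested. Rises of smallest p included Klk7 (2.76 ± 0.22), a chymotrypsin-like protease of corneocyte shedding, St14 (1.82 ± 0.18), which encodes matriptase, Furin (1.08 ± 0.13), the target of the Serpinb8 product, and Klk5 (1.42 ± 0.20). Tmprss11d, which encodes an airway trypsin-like protease, had 4 counts over the WT group and 172 over the Klk6+ group. The 3 that fell were Plat (-1.60 ± 0.23) and Plau (-0.88 ± 0.24), the plasminogen activators that the Serpinb2 product inhibits, and Gzma (-1.17 ± 0.48; edgeR adjusted p = 0.0495). Serpinb2 was thus higher and both of its target genes lower in the same skin. Plau, however, overlapped between the genotypes (54.6 to 155.4 CPM in WT, 32.4 to 71.4 CPM in Klk6+). It was called lower within females but not within males (edgeR adjusted p = 0.0113 and 0.0864). Of the neutrophil proteases that SERPINB1 inhibits, Elane and Ctsg were too low to be tested (at most 0.926 and 0.869 CPM in any mouse), and Prtn3 was not called (-1.12 ± 0.48, adjusted p = 0.0551).

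Of 14 cysteine proteases of the papain and caspase families, 12 were listed and tested; 4 rose and 5 fell (median -0.16), near the 37.7% and 35.1% of all genes tested. The 5 that fell were all cathepsins, Ctsz (-1.71 ± 0.20), Ctss (-1.51 ± 0.27), Ctsk (-1.02 ± 0.28), Ctsb (-0.96 ± 0.26) and Ctsf (-0.57 ± 0.22). All but Ctsz overlapped between the genotypes. Within males Ctsb and Ctsf were not called (edgeR adjusted p = 0.0894 and 0.334), and within females Ctsk was not (0.476). The genotype by sex interaction did not pass adjustment for any of them. The 4 that rose were caspases, Casp14 (3.82 ± 0.23), of terminal keratinocyte differentiation, Casp1 (1.94 ± 0.22), Casp4 (1.67 ± 0.14) and Casp8 (0.40 ± 0.11). Casp8 overlapped between the genotypes and was not called within females (edgeR adjusted p = 0.596). Ctsl, a cathepsin that human SERPINB3 inhibits, stood at 396.5 ± 75.2 CPM in WT and 558.8 ± 223.4 CPM in Klk6+ (n = 5 each; 0.50 ± 0.24, edgeR adjusted p = 0.0838). The macrophage markers given above fell in the same libraries, and Ctss, Ctsb and Ctsz are abundant in macrophages; the part of those cells was not tested.

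Serpins of other clades were called in both directions. Of 32 looked for, 31 were listed and 19 tested; 4 rose and 7 fell (median -0.38), against 37.7% and 35.1% of all genes tested. Falls of smallest p were Serpinf1 (-2.54 ± 0.13), which encodes pigment epithelium-derived factor, Serping1 (-1.81 ± 0.17), the complement C1 inhibitor, Serpina12 (-2.88 ± 0.29), Serpine2 (-1.29 ± 0.18), an inhibitor of thrombin and plasminogen activators, and Serpinh1 (-1.30 ± 0.25), a collagen chaperone. Rises were Serpina9 (6.17 ± 0.26, from 0.569 ± 0.227 to 41.3 ± 6.25 CPM, n = 5 each), Serpina10 (2.66 ± 0.37), Serpina3n (1.79 ± 0.42) and Serpina3f (1.03 ± 0.32).

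Once each genotype's own mean was removed, the genes whose log2 CPM followed a serpin most closely over the 10 libraries were looked up among 13857 genes of at least 1 CPM. They are the top of a long ranking and share library depth and cell content, so their correlations are high by selection and are given as a description. For Serpinb5 they included Krtdap (Pearson r = 0.983), a gene of differentiating keratinocytes, and Mtx3 (0.979). For the summed Serpinb3 copies they were Llph (0.983), Mif (0.979) and Tmprss4 (0.973), for Serpinb2 Ndel1 (0.978), Wsb2 (0.973) and Ppp2r2a (0.973), and for Serpinb7 Oas1f (0.964), Dlg2 (0.958) and Skint5 (0.954), the last of a family of butyrophilin-like genes of skin. Among the members themselves Serpinb5 and Serpinb12 were the closest pair (0.961), followed by Serpinb5 and Serpinb3b (0.915). Serpinb3a and Serpinb3b, by contrast, reached 0.622, and Serpinb1a and Serpinb3d -0.60. Serpinb3d had 0 to 5 counts in each WT library and met the limit of 1 CPM through the Klk6+ libraries alone. Its WT values are therefore mostly counting error, and its correlation is loosely set.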

How the data were processed

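Polyadenylated RNA of whole skin, 1 library per mouse, was sequenced as 50-base single reads with a kit that does not mark strand, per the labels' protocols. The authors deposited for each mouse whole-number read counts per gene symbol and FPKM values. The submitters' processing notes name TopHat2, SAMtools, HTSeq and Cufflinks 2.2.1 with no role or order, and as build mm10 (GRCm38). No source used here states how reads matching several genes were handled.

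Counts were fitted in R 4.3.3 with edgeR 4.0.16 (filterByExpr, minimum count 10; trimmed mean of M values; quasi-likelihood F test; sex as covariate), over all genes. SE is the log2 fold change divided by the square root of F. CPM use the scaled library sizes. FPKM serve for levels between genes. Single sums were tested by exact permutation. Alternatives were RLE, upper-quartile and no factors, no filter, DESeq2 1.42.0, limma-voom and limma-trend on log2(FPKM + 0.1 or 1) with limma 3.58.1, genotype alone, each sex alone, and leaving out each library. Simulated data were used to check the main fit, RLE factors, DESeq2, limma-voom, genotype alone, each sex alone, and the interaction in edgeR and limma-voom. Limma-trend was checked with 0.1 added, on simulated CPM in place of FPKM. Upper-quartile and no factors, no filter, log2(FPKM + 1), the interaction with RLE factors and leaving out each library were not checked this way.

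The 10 genes and the lists were chosen with earlier results of these data known. All 10 genes are named; of each list, the text names up to 5 tested genes of smallest p per direction, and for likeness the 3 highest correlations, shown for part of the genes, of which 1 is not reported here. Protein sequences were not used here, so the planned description of reactive loops was left out. Positions are from GENCODE M21 on GRCm38, promoters from RefSeq on GRCm38.p6.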

Additional observations from a re-analysis of the deposited data

How the results depend on the processing

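With each library left out in turn, 7 to 8 of the 10 serpin genes were called higher, 1 to 2 lower (Serpinb8 joined Serpinb7 without Klk6+ 5), and none for genotype by sex, for which 4 genes of the whole table were called without WT 3, 1 without Klk6+ 4 and 0 otherwise. Counts of called genes over the whole table were 10813 in the main analysis and 7890 (females alone) to 11265 (no filter) otherwise. Of the 9 called among the 10 serpin genes, 8 kept their direction and their call under all 21 alternatives, and Serpinb1a kept its direction in all of them and lost its call in 12. The summed Serpinb3 difference was 6.48 to 6.96 on the log2 scale without single libraries, and 5.32 (Serpinb3b alone) to 8.68 (Serpinb3a alone) otherwise; Serpinb3d alone has no value, since WT 3 had 0 counts. Females alone gave 6.35 for Serpinb3b and 7.13 for Serpinb3c, and males alone 4.52 and 5.07. Another scaling moved the median of all genes by at most 0.10 (upper-quartile factors, -0.10). No paired analysis was possible because the replicate numbers used here only follow the order of the samples, and no label ties a number to a litter, batch or day. Depth limits Serpinb3c and Serpinb3d, with 41 and 10 counts over all WT libraries. These alternatives were not run for single genes outside the 10.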
